A study of Homo sapiens with 24 samples.

Results

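The genes described here are 10 factors that remove the 5′ cap of mRNA, gather in P-bodies or degrade decapped mRNA: DCP2, DCP1A, DCP1B, EDC3, EDC4, PATL1, DDX6, LSM14A, EIF4ENIF1 and XRN1. They were taken from a list written for their roles, with earlier results of these data known, and make up 10 of the 57721 genes in the data. All 10 had enough reads to be tested. Reads of RNA from whole HCT116 cells, an established human colon cancer line, were collected as 24 libraries in 8 groups of 3. Untransfected groups were TNRC6A-/-, TNRC6B-/-, TNRC6AB-/- and wild-type (WT) cells. Transfected groups were TNRC6AB-/- siTNRC6C, TNRC6AB-/- siGL2, WT siTNRC6C and WT siGL2 cells, where siTNRC6C is a pool of duplex RNAs against TNRC6C and siGL2 is a noncomplementary control duplex. TNRC6A was disrupted by a frameshifting point mutation and TNRC6B by a large deletion, and each knockout genotype is represented by a line bought as such, so effects of a genotype and of its line cannot be told apart. All cells grew in McCoy's 5A medium with serum, and duplexes were delivered with lipid. For transfection, TNRC6AB-/- cells were seeded at a higher number per well than WT cells because they grew more slowly. In transfected cells, effects of genotype and of seeding cannot be told apart. Nothing in the sources tells if the 3 libraries of each group were separate cultures, and p-values measure only the spread between them.

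Decapping is the step that commits most mRNAs to decay from the 5′ end. DCP2 is the enzyme that hydrolyses the cap, DCP1A and DCP1B are alternative activating partners, EDC3 and EDC4 are enhancers that hold the complex together, and PATL1 and the helicase DDX6 link deadenylated mRNA to decapping. LSM14A and EIF4ENIF1 (4E-T) bind DDX6 and repress translation in P-bodies, and XRN1 degrades the decapped body of the message. TNRC6 proteins are the scaffolds that connect Argonaute and its microRNA to deadenylation, and microRNA targets are then decapped and degraded by this machinery. The comparisons ask how RNA levels of the machinery stand when the scaffolds are lost.

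The targeted genes were lower where the labels place their loss, while other TNRC6 genes rose in the untransfected knockout lines. Of the 3 TNRC6 genes, 2 were called as higher than in WT in TNRC6A-/-, 1 in TNRC6B-/- and 1 in TNRC6AB-/- cells. Of all tested genes 8.52%, 2.2% and 17.2% rose in these comparisons, by the test described below. TNRC6A had 66.4 to 69.8 CPM (read counts per library, scaled to a common library size by TMM) in TNRC6A-/- libraries, against 95.4 to 121 CPM in WT libraries. TNRC6B had 113 to 126 CPM in TNRC6B-/- libraries, against 184 to 203 CPM in WT libraries, and TNRC6C had 20.6 to 21.4 CPM in WT siTNRC6C libraries, against 49.5 to 58.0 CPM in WT siGL2 libraries. Depth was 28144290 to 42689320 reads per library. A list of 6 colon epithelial genes summed to 834 to 2228 CPM over all libraries, and of 8 markers of blood, endothelium and fibroblasts 4 passed the filter on low counts (COL1A1, PECAM1, PTPRC and VWF). The 4 summed to 30.7 to 49.8 CPM in the TNRC6AB-/- groups and 17.4 to 31.2 CPM in the other groups, most of it COL1A1, a collagen gene; the part of these cells or genes in the results was not tested. Bulk RNA levels cannot tell fewer cells of a kind from less RNA per cell. WT replicate 2, TNRC6B-/- replicate 1, TNRC6AB-/- replicate 1 and WT siGL2 replicate 3 were each the farthest of their group from its mean. Their distances (root mean square over all genes, log2) were 0.253, 0.292, 0.216 and 0.171. TNRC6B-/- replicate 3 (0.219), WT replicate 3 (0.197) and TNRC6AB-/- replicate 3 (0.193) lay farther than WT siGL2 replicate 3 and were kept. Results that rest on the first 4, called the 4 distant libraries, are given without them. Leaving out a group's farthest library tends to narrow its spread, so calls made that way are no independent support.

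DCP2 was called as higher in every group with the TNRC6A mutation. Each group was set against the WT group given the same duplex or none. Each of the other 9 genes was called in fewer of these comparisons. The group means of XRN1 and EDC3 were also higher in each of them, not always past the threshold. By edgeR's quasi-likelihood test, with p-values adjusted over all 24153 genes tested and a call at an adjusted p below 0.05, DCP2 and EDC4 rose in TNRC6A-/- cells (2 of 10 genes, where 14% of all tested genes were called). In TNRC6B-/- cells 0 of 10 were called, where 3.14% of all genes were, 1 of 10 passed at an unadjusted p below 0.05, and DESeq2 and limma voom also called 0. Without the 4 distant libraries DCP1A, DCP1B, EDC3 and LSM14A were called there, all as higher (adjusted p = 0.000259, 0.0396, 0.0488 and 0.0302). That setting called 6008 of all tested genes in this comparison, where the fit of all libraries called 759. In TNRC6AB-/- cells DCP2, PATL1, XRN1 and EDC3 rose and none fell, 4 of 10 where 29.4% of all genes were called. These 3 comparisons share the WT libraries. Libraries of the compared groups did not overlap for 3 of 10 genes in TNRC6A-/- (31.4% of all genes), 1 of 10 in TNRC6B-/- (11.2%) and 4 of 10 in TNRC6AB-/- cells (34%), so these shares were near those of all genes. The median log2 fold change of the 10 genes was 0.12 in TNRC6AB-/- cells, beside 0.01 over all tested genes.

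Read per length, as TPM (each transcript's share after division by its length), the helicase DDX6 and its partner LSM14A were the most abundant of the 10 in WT cells, with 75.5 ± 5.88 and 68.4 ± 4.60 TPM (SD, n = 3), and their libraries overlapped. DCP2 followed with 21.0 ± 1.57 TPM. XRN1, EDC3, DCP1A, EIF4ENIF1, EDC4 and PATL1 averaged 14.0 to 16.5 TPM, with overlapping libraries, and DCP1B was lowest with 6.99 ± 0.94 TPM. In TNRC6AB-/- siTNRC6C cells, DCP2 averaged 56.9 ± 1.18 TPM and was again the third in the order, between LSM14A with 82.8 ± 1.35 TPM and PATL1 with 24.9 ± 0.66 TPM. These TPM sum all annotated transcripts of a gene, coding or not. In WT cells the mean share of protein-coding transcripts in TPM ran from 34.14% for EDC4 to 93.19% for PATL1, and was 58.61% for DCP2. The median log2 TPM ratio of all genes above 1 TPM shifted between some groups. It was 0.42 for TNRC6AB-/- siTNRC6C over WT siTNRC6C and -0.29 for WT siGL2 over WT cells. Log2 TPM ratios of DCP2 are therefore set beside this median where they are given.

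DCP2 (ENSG00000172795.15, chr5:112976702-113020970, plus strand, GRCh38, GENCODE 29) encodes the decapping enzyme itself. Its CPM was 196, 218 and 205 in TNRC6A-/- libraries, against 127, 116 and 147 in WT libraries. TNRC6B-/- libraries had 125, 125 and 136 CPM, and TNRC6AB-/- libraries 209, 262 and 221 CPM. Every TNRC6A-/- and TNRC6AB-/- library therefore lay above every WT library, whereas the TNRC6B-/- libraries lay within the WT range. The log2 fold change against WT was 0.66 in TNRC6A-/- cells (SE 0.10, adjusted p = 8.26e-05), -0.02 in TNRC6B-/- cells (SE 0.10, adjusted p = 0.956) and 0.82 in TNRC6AB-/- cells (SE 0.10, adjusted p = 1.24e-06, 76.8% higher with a 95% interval of 53.1 to 104%). For TNRC6B-/- the 95% interval of the change ran from 14.7% lower to 13.6% higher. Set against each other directly, TNRC6A-/- cells had more DCP2 RNA than TNRC6B-/- cells, by 0.68 on the log2 scale (SE 0.10, adjusted p = 6.63e-05), a comparison added after the values were seen that called 1 of the 10 genes and 13.1% of all genes. Without TNRC6B-/- replicate 1 it also called DCP1A and LSM14A, both lower in TNRC6A-/- cells (adjusted p = 0.00271 and 0.00975). TNRC6AB-/- and TNRC6A-/- cells did not differ beyond the spread of their libraries, with a log2 difference of 0.16 (95% interval -0.05 to 0.37, adjusted p = 0.256).

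**Figure D1:**
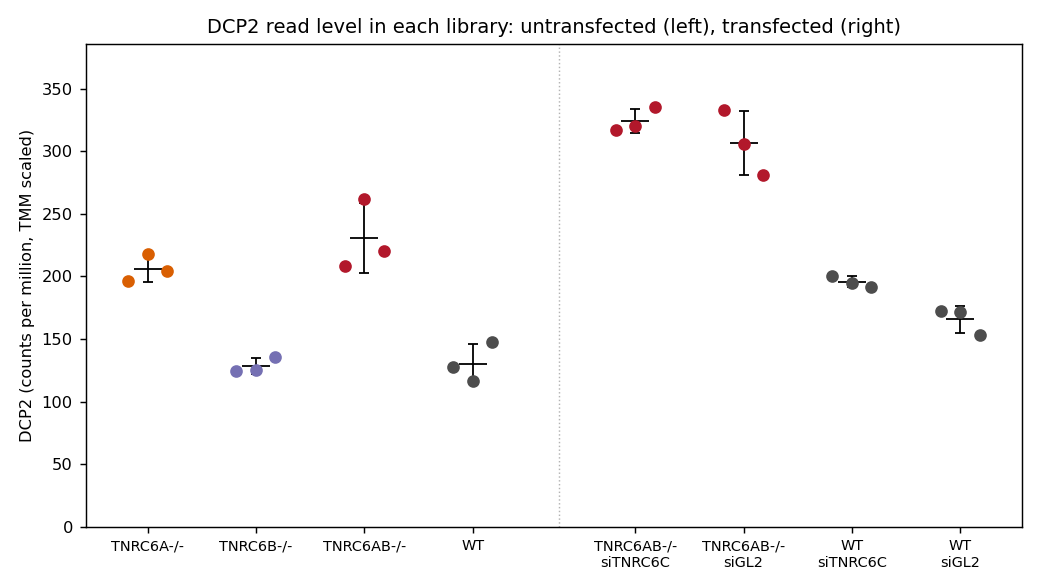
DCP2 read level in each library, in CPM on a linear axis from 0, for the 4 untransfected groups (left of the dotted line) and the 4 transfected groups (right). Points are libraries, and bars give the mean and SD of 3 libraries. All TNRC6A-/- and TNRC6AB-/- libraries (lowest 196 CPM) lie above the untransfected WT libraries (highest 147 CPM), and TNRC6AB-/- libraries given either duplex (lowest 282 CPM) lie above both transfected WT groups (highest 201 CPM).

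The same direction was measured in transfected cells, in libraries that share nothing with the untransfected ones. DCP2 had 317, 321 and 336 CPM in TNRC6AB-/- siTNRC6C libraries, and 333, 306 and 282 CPM in TNRC6AB-/- siGL2 libraries. WT siTNRC6C libraries had 201, 195 and 192 CPM and WT siGL2 libraries 172, 171 and 154 CPM. The TNRC6AB-/- libraries of either duplex were thus all above the WT libraries of either duplex. DCP2 was higher in TNRC6AB-/- siGL2 than in WT siGL2 cells by 0.89 on the log2 scale (SE 0.10, adjusted p = 6.75e-07), and in TNRC6AB-/- siTNRC6C than in WT siGL2 cells by 0.97 (SE 0.10, adjusted p = 8.57e-08). Against WT siTNRC6C cells the TNRC6AB-/- siTNRC6C cells were higher by 0.73 (SE 0.10, adjusted p = 4.17e-06), in a comparison added after the values were seen. Of all tested genes, 8.64% had a larger log2 fold change than DCP2 in TNRC6AB-/- against WT cells, 5.15% in TNRC6AB-/- siGL2 and 9.20% in TNRC6AB-/- siTNRC6C against WT siGL2 cells, and 16.2% in TNRC6AB-/- siTNRC6C against WT siTNRC6C cells. The calls on DCP2 in TNRC6A-/-, TNRC6AB-/-, TNRC6AB-/- siGL2 and TNRC6AB-/- siTNRC6C cells held in each of 9 other settings and in each run that left out a library.

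Knockdown of TNRC6C gave no call on DCP2 in either genotype. In WT cells siTNRC6C against siGL2 gave a log2 difference of 0.24 (SE 0.10, adjusted p = 0.294), although the libraries did not overlap, which 29% of all tested genes also showed. It passed with the compared libraries fitted alone (adjusted p = 0.0166) and with limma voom (0.0453). In TNRC6AB-/- cells the same duplexes gave 0.08 (95% interval -0.13 to 0.29, adjusted p = 0.642) with libraries that overlapped in CPM. In TPM the libraries of these TNRC6AB-/- groups did not overlap, as given below. DCP2 was also higher in WT siGL2 than in WT cells, by 0.35 (SE 0.10, adjusted p = 0.0153). That call was lost in 3 of 9 other settings. It was also lost without WT replicate 2 (adjusted p = 0.0903), WT siGL2 replicate 1 (0.0720) or WT siGL2 replicate 2 (0.0662). Transfection and other differences between these sets of libraries, such as fragment length, cannot be told apart. From high to low the group means were 324 CPM for TNRC6AB-/- siTNRC6C, 307 for TNRC6AB-/- siGL2, 231 for TNRC6AB-/-, 206 for TNRC6A-/-, 196 for WT siTNRC6C, 166 for WT siGL2, 130 for WT and 128 for TNRC6B-/-. Neighbours in this order had overlapping libraries except for 3 pairs, TNRC6AB-/- siGL2 and TNRC6AB-/-, WT siTNRC6C and WT siGL2, and WT siGL2 and WT.

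Reads of DCP2 came mainly from a protein-coding transcript, DCP2-201, of 8947 bases, which took 92.7% of the gene's reads on average, and protein-coding transcripts together held 95.2 to 98.3% in every library. The DCP2 values in CPM are therefore mostly those of this coding transcript. By TPM, which divides by length, DCP2-201 held 55.45% of the gene on average. Protein-coding transcripts together held 52.26 to 70.23% of DCP2 TPM over the group means. Transcripts annotated as retaining an intron held 11.01 to 25.57%. The TPM of DCP2 thus include a large part from transcripts not annotated as protein-coding. On the TPM scale DCP2 averaged 35.1 ± 1.42 in TNRC6A-/-, 17.8 ± 4.33 in TNRC6B-/- and 33.0 ± 7.75 in TNRC6AB-/- cells, against 21.0 ± 1.57 in WT cells (SD, n = 3). TNRC6AB-/- replicate 3 was lowest of its group with 24.1 TPM, above the highest WT library with 22.0 TPM. The log2 ratio of mean TPM was 0.65 for TNRC6AB-/- over WT cells, beside a median of -0.04 over all genes. It was 0.90 for TNRC6AB-/- siGL2 over WT siGL2, beside a median of 0.36, and 1.40 for TNRC6AB-/- siTNRC6C over WT siTNRC6C, beside a median of 0.42. For WT siTNRC6C over WT siGL2 it was -0.02, beside 0.07, so the higher level in CPM did not appear in TPM. For TNRC6AB-/- siTNRC6C over TNRC6AB-/- siGL2 it was 0.48, beside 0.13, so a higher level appeared in TPM that was not called in CPM. The TNRC6AB-/- siTNRC6C libraries had 55.8 to 58.14 TPM and the TNRC6AB-/- siGL2 libraries 37.97 to 45.61 TPM. None of the 9 other settings called DCP2 in that comparison, with log2 differences of up to 0.27. The gap between annotated and effective transcript length, which follows the length of the sequenced fragments, was 165 to 172 bases in TNRC6A-/- libraries, 182 to 192 in the other untransfected libraries and 197 to 214 in transfected ones, and its part in the result was not tested.

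DCP2 also had the longest 3′ untranslated region (3′UTR) of the 10 genes. In GENCODE 29 the 3′UTR of DCP2-201 is 7486 bases long, and 2.44% of the 14982 3′UTRs of tested genes were longer, around a median of 1078 bases. TNRC6 proteins act on mRNAs that a microRNA pairs with, so the matches to the seeds of 20 microRNA families, chosen with these results known and without any measurement of microRNAs in these cells, were located on the mRNA strand. A match is the reverse complement of bases 2 to 8 of the microRNA, and an A after it was recorded separately. DCP2 held 24 matches of 12 families, 3.21 per 1000 bases beside 1.90 over all 3′UTRs, which was lower than PATL1 with 3.58. Of the 24 matches in DCP2, 7 were followed by an A. The mature microRNAs of those 7 are shown because they let a reader follow the pairing, with the seed in capitals (RefSeq, GRCh38.p14):
hsa-miR-27a-3p: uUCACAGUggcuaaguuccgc
hsa-miR-29a-3p: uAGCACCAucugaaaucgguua
hsa-miR-141-3p: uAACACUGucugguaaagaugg
hsa-miR-194-5p: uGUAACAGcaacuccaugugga
hsa-miR-182-5p: uUUGGCAAugguagaacucacacu
hsa-miR-221-3p: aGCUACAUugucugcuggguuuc
The DCP2 sites are shown in order from the stop codon, 5′ to 3′, with the match and its A in capitals (GENCODE 29, GRCh38, plus strand):
miR-194 match, chr5:113013821-113013846: tgctccatctacCTGTTACAgtgatt
miR-221/miR-222 match, chr5:113014186-113014211: ctgctggaggaaATGTAGCAgacagc
miR-29 match, chr5:113015008-113015033: gtgtcaccctttTGGTGCTAagcagg
miR-27 match, chr5:113016058-113016083: aaggtgcagtgcACTGTGAAtctttt
miR-182 match, chr5:113017453-113017478: gcatttgtctagTTGCCAAAagttct
miR-27 match, chr5:113019248-113019273: taaaggttctcaACTGTGAAtgaaat
miR-141/miR-200a match, chr5:113020571-113020596: gtttttttccctCAGTGTTAacgaaa

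Other 3′UTRs of like length also hold such matches, and the share that holds several of them together was not computed. Among 610 3′UTRs of 75 to 125% of the length of DCP2's, a match followed by an A was held by 21.8% for miR-27 (ACTGTGA), 10.5% for miR-29 (TGGTGCT), 21.5% for miR-141/miR-200a (CAGTGTT), 11.6% for miR-194 (CTGTTAC), 22.3% for miR-182 (TTGCCAA) and 11.3% for miR-221/miR-222 (ATGTAGC). The miR-27 match at base 2586 of the 3′UTR overlapped a match to the miR-148/miR-152 seed (TGCACTG) that begins at base 2583. No match to the seeds of let-7 (CTACCTC), miR-17/miR-20/miR-93/miR-106 (GCACTTT), miR-15/miR-16 (TGCTGCT), miR-21 (ATAAGCT), miR-30 (TGTTTAC), miR-103/miR-107 (ATGCTGC), miR-192/miR-215 (TAGGTCA) or miR-34 (CACTGCC) was found. The families with a match not followed by an A were miR-19 (TTTGCAC), miR-25/miR-92 (GTGCAAT), miR-26 (TACTTGA), miR-101 (GTACTGT), miR-200b/miR-200c/miR-429 (CAGTATT) and miR-148/miR-152. A match describes the letters of the annotated transcript only.

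Among the other genes, seed matches were found in the 3′UTRs of XRN1 (4904 bases, 5 matches), DDX6 (4339 bases, 11 matches), DCP1A (4152 bases, 9 matches), LSM14A (2127 bases, 3 matches), EDC3 (2054 bases, 4 matches) and PATL1 (1674 bases, 6 matches). The 3′UTRs of EIF4ENIF1 (511 bases), EDC4 (355) and DCP1B (152) held none. Of the 7 genes with matches, DCP2, PATL1, XRN1 and EDC3 were called in TNRC6AB-/- against WT cells and DDX6, DCP1A and LSM14A were not, and none of the 3 genes without matches was called there. The split was different in other comparisons. In TNRC6AB-/- siTNRC6C against WT siTNRC6C cells, all 3 genes without matches were called as lower. Of the genes with matches, DDX6 was called as lower there and DCP2 and XRN1 as higher. EDC4, without matches, was called as higher in TNRC6A-/- cells. No test was made of a relation between matches and levels.

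**Figure D2:**
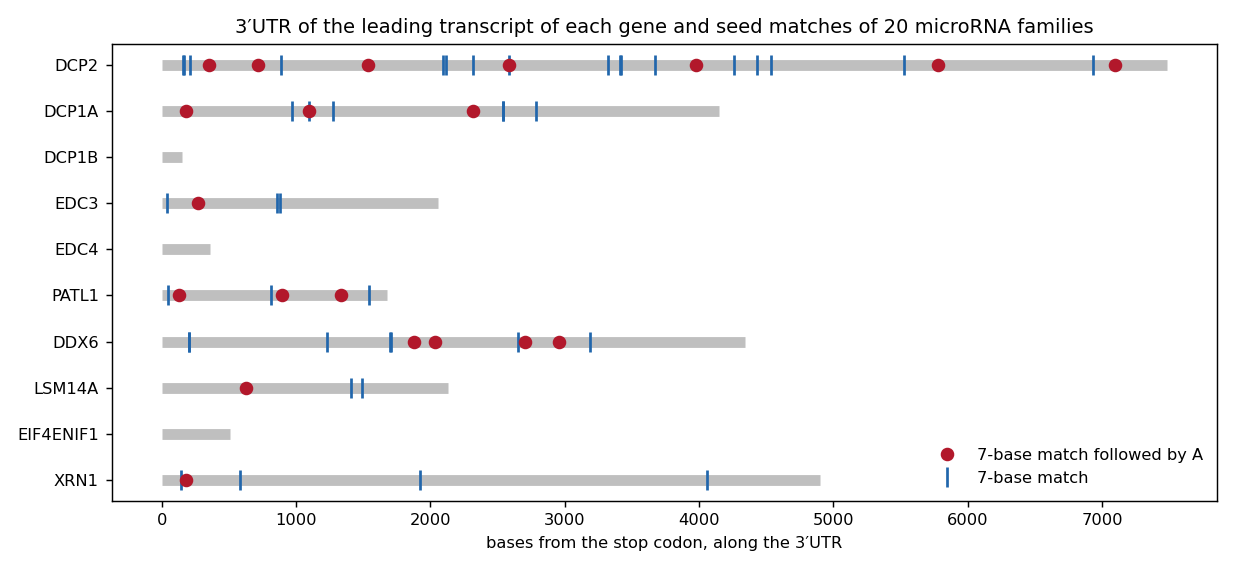
The 3′UTR of the leading transcript of each gene as a grey bar to scale, in bases from the stop codon, with matches to the seeds of 20 microRNA families. Red circles are matches followed by an A and blue ticks are other matches. DCP2 has the longest bar (7486 bases) and 24 matches, and DCP1B, EDC4 and EIF4ENIF1 have none.

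DCP1A and DCP1B, the alternative activators of DCP2, were not called in any untransfected knockout line in the fit of all libraries. DCP1A (ENSG00000272886.5, chr3:53283428-53347610, minus strand) had 68.7, 77.6 and 77.5 CPM in TNRC6AB-/- libraries, against 66.6, 75.9 and 68.4 CPM in WT libraries. Its log2 difference there was 0.09 (95% interval -0.13 to 0.30, adjusted p = 0.602), and no planned comparison called it. Without the 4 distant libraries the difference was 0.20 and was called (adjusted p = 0.0347). In TNRC6B-/- libraries it had 68.7, 88.4 and 92.9 CPM, a log2 difference of 0.25 from WT (SE 0.10, adjusted p = 0.250). That difference reached an adjusted p of 0.0247 without TNRC6B-/- replicate 1, the library of that group farthest from its mean, and of 0.000259 without the 4 distant libraries. The ratio of DCP2 to DCP1A CPM within a library was 3.03 ± 0.09 in TNRC6A-/-, 1.56 ± 0.22 in TNRC6B-/- and 3.09 ± 0.27 in TNRC6AB-/- cells, against 1.87 ± 0.32 in WT cells (SD, n = 3). In transfected cells the ratio was 4.35 ± 0.16 in TNRC6AB-/- siTNRC6C, 3.82 ± 0.08 in TNRC6AB-/- siGL2 and 2.67 ± 0.05 in WT siTNRC6C cells, against 2.17 ± 0.10 in WT siGL2 cells.

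DCP1B (ENSG00000151065.13, chr12:1946054-2004535, minus strand) was the member with the fewest reads, 360 to 770 per library, and the only one called as lower in a planned comparison. It had 12.7, 13.7 and 13.6 CPM in TNRC6AB-/- siTNRC6C libraries, against 18.6, 19.4 and 16.2 CPM in WT siGL2 libraries. The libraries did not overlap. DCP1B fell by 0.43 on the log2 scale there (SE 0.12, adjusted p = 0.00563), and with DCP2 it made 2 calls among the 10 genes where 42.2% of all genes were called. Libraries did not overlap there for 4 of 10 genes, against 60.2% of all genes. The call was lost with counts scaled by average transcript length (log2 difference -0.28, adjusted p = 0.113). TNRC6AB-/- siGL2 libraries had 15.4, 15.1 and 13.2 CPM, all below the WT siGL2 libraries, with a log2 difference of -0.31 that was not called (SE 0.12, adjusted p = 0.0673). It passed without WT siGL2 replicate 3 (-0.39, adjusted p = 0.0381), without the 4 distant libraries (-0.38, 0.00136), in the compared libraries alone (0.0324), with limma voom (0.0203) and with protein-coding transcripts alone (0.000918). In that comparison DCP2 was the only call among the 10 genes (21.7% of all genes were called), and libraries did not overlap for 2 of 10 (38.8% of all genes). In untransfected cells DCP1B was not called for genotype, with 11.7, 15.1 and 14.2 CPM in TNRC6AB-/- libraries, against 11.8, 15.0 and 13.8 CPM in WT libraries. Without the 4 distant libraries it was called in TNRC6B-/- cells, with a log2 difference of 0.28 (0.09 with them). WT siGL2 cells had more DCP1B than WT cells, by 0.42 on the log2 scale (SE 0.12, adjusted p = 0.0155), a call lost without WT replicate 1 (adjusted p = 0.0783), WT siGL2 replicate 1 (0.0620) or WT siGL2 replicate 2 (0.0797). The 2 genes lie against longer genes on the opposite strand, DCP1A against CACNA1D and DCP1B against CACNA1C, and the sources do not state whether strand was used in counting.

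EDC3 and EDC4, the scaffolding enhancers of decapping, each had 1 call among the untransfected lines, EDC3 in TNRC6AB-/- and EDC4 in TNRC6A-/- cells. EDC3 (ENSG00000179151.12, chr15:74630558-74696292, minus strand) had 40.4, 42.2 and 44.4 CPM in TNRC6AB-/- libraries, against 32.0, 34.3 and 32.3 CPM in WT libraries, with no overlap. It rose by 0.37 on the log2 scale (SE 0.09, adjusted p = 0.00360). It was not called in TNRC6A-/- cells, with 34.2, 33.2 and 33.9 CPM, and TNRC6AB-/- cells exceeded TNRC6A-/- cells by 0.33 (SE 0.09, adjusted p = 0.0114) in a comparison added after the values were seen, where 3 of 10 genes and 24.3% of all genes were called. The call against WT was lost without the filter on low counts (adjusted p = 0.0650), when the compared libraries were fitted alone (0.0987) and with length-scaled counts (0.0704). In transfected cells its libraries overlapped between genotypes and it was not called, with log2 differences of 0.17 in TNRC6AB-/- siGL2 against WT siGL2 cells (adjusted p = 0.220) and 0.02 in TNRC6AB-/- siTNRC6C against WT siTNRC6C cells (adjusted p = 0.876). The first passed in the compared libraries alone (0.0117) and both passed with protein-coding transcripts alone (0.00543 and 0.00725). EDC3 overlaps CLK3 on the opposite strand.

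EDC4 (ENSG00000038358.14, chr16:67873023-67884503, plus strand) had 60.8, 52.3 and 56.6 CPM in TNRC6A-/- libraries, against 45.9, 42.5 and 51.4 CPM in WT libraries. The libraries did not overlap, and EDC4 rose by 0.28 (SE 0.09) at an adjusted p of 0.0497, just under the threshold. The call was lost in 6 of 9 other settings and without WT replicate 1 (adjusted p = 0.119), WT replicate 2 (0.174), TNRC6A-/- replicate 1 (0.198) or TNRC6A-/- replicate 3 (0.108). Protein-coding transcripts held 50.4 to 75.2% of its reads, the lowest share of the 10 genes. In TNRC6AB-/- cells EDC4 had 49.5, 53.0 and 49.4 CPM and was not called (log2 difference 0.12, adjusted p = 0.389).

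**Figure D3:**
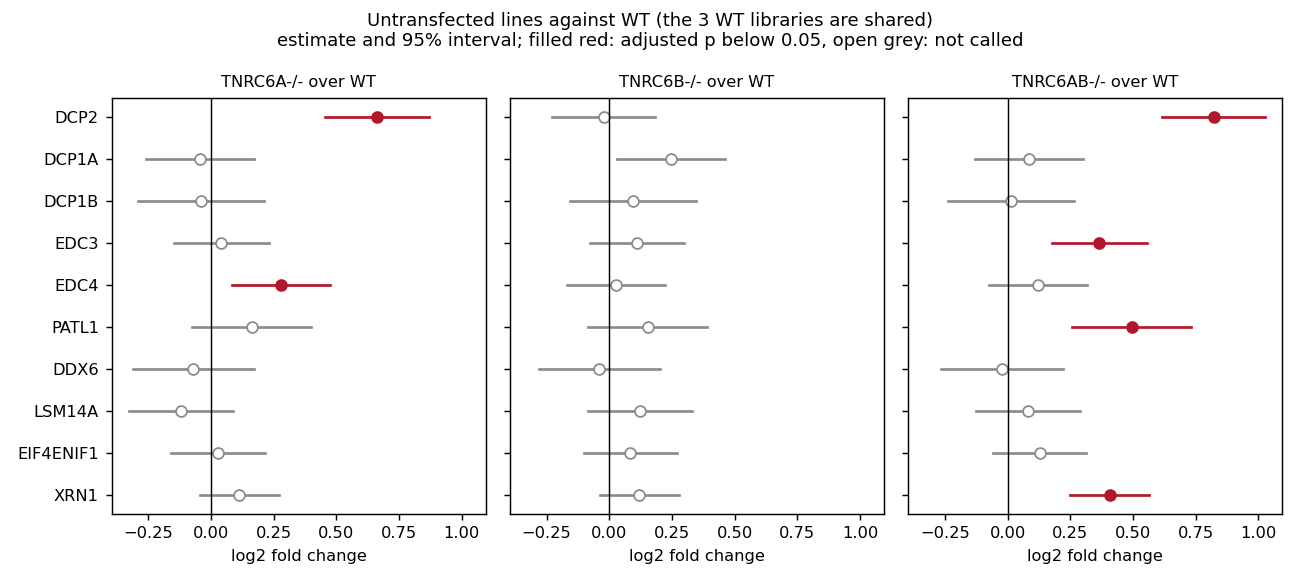
Log2 fold changes of the 10 genes in TNRC6A-/- (left), TNRC6B-/- (middle) and TNRC6AB-/- cells (right) over WT cells, on 1 linear axis, with 95% intervals from the fit of all 24 libraries. Filled red points have an adjusted p below 0.05 and open grey points do not. DCP2 stands at 0.66 in TNRC6A-/- and 0.82 in TNRC6AB-/- cells and at -0.02 in TNRC6B-/- cells, where no gene is called.

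PATL1 (ENSG00000166889.13, chr11:59636716-59668980, minus strand), which bridges deadenylated mRNA to the decapping complex, had 97.0, 89.7 and 78.3 CPM in TNRC6AB-/- libraries, against 62.1, 53.3 and 72.6 CPM in WT libraries. All TNRC6AB-/- libraries were above all WT libraries, and PATL1 rose by 0.49 on the log2 scale (SE 0.11, adjusted p = 0.00196). The call was lost when the compared libraries were fitted alone (adjusted p = 0.0586). In TNRC6A-/- libraries PATL1 had 79.3, 59.4 and 71.7 CPM, which overlapped WT (log2 difference 0.16, adjusted p = 0.383). Transfected WT cells were already at the level of the untransfected TNRC6AB-/- cells, with 93.4, 90.0 and 77.2 CPM in WT siGL2 libraries, a rise of 0.47 over WT (SE 0.11, adjusted p = 0.00584). TNRC6AB-/- siGL2 libraries had 101, 92.5 and 88.1 CPM and overlapped WT siGL2, with a log2 difference of 0.11 (95% interval -0.13 to 0.35, adjusted p = 0.561), which passed in the compared libraries alone (0.0328). The difference between the effects of the genotype with and without transfection was -0.38 on the log2 scale and was not called (SE 0.16, adjusted p = 0.150), but it was called without WT replicate 3 (-0.50, adjusted p = 0.0417).

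XRN1 (ENSG00000114127.10, chr3:142306607-142448062, minus strand), the exonuclease that follows decapping, had 110, 124 and 109 CPM in TNRC6AB-/- libraries, against 86.3, 85.7 and 86.3 CPM in WT libraries. The WT libraries lay close together and well below, and XRN1 rose by 0.41 on the log2 scale (SE 0.08, adjusted p = 0.000236). The call was lost when the compared libraries were fitted alone (adjusted p = 0.0681) and with length-scaled counts (0.0762). TNRC6A-/- libraries had 88.0, 94.2 and 97.1 CPM and TNRC6B-/- libraries 95.8, 91.1 and 93.5 CPM. Both were above WT without overlap and neither was called, with log2 differences of 0.11 (adjusted p = 0.357) and 0.12 (adjusted p = 0.522). With siGL2 the TNRC6AB-/- libraries had 113, 103 and 101 CPM, against 100, 102 and 94.7 CPM in WT libraries, which overlapped (log2 difference 0.10, adjusted p = 0.422, and 0.0397 in the compared libraries alone). With siTNRC6C they had 107, 107 and 110 CPM, against 84.5, 90.7 and 84.7 CPM in WT libraries, a rise of 0.32 (SE 0.08, adjusted p = 0.00167).

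DDX6, LSM14A and EIF4ENIF1, the translational repressors of P-bodies, showed no call by genotype in the planned comparisons in the fit of all libraries. DDX6 (ENSG00000110367.12, chr11:118747766-118791149, minus strand) had 349, 423 and 387 CPM in TNRC6AB-/- libraries, against 368, 416 and 393 CPM in WT libraries, a log2 difference of -0.02 (95% interval -0.26 to 0.22, adjusted p = 0.921). LSM14A (ENSG00000257103.8, chr19:34172504-34229515, plus strand) had 148, 167 and 153 CPM in TNRC6AB-/- libraries, against 142, 149 and 151 CPM in WT libraries (log2 difference 0.08, adjusted p = 0.606). EIF4ENIF1 (ENSG00000184708.17, chr22:31436977-31496108, minus strand) had 32.7, 31.6 and 31.8 CPM in TNRC6AB-/- libraries, against 26.6, 29.2 and 32.0 CPM in WT libraries (log2 difference 0.13, adjusted p = 0.325). The libraries overlapped for all 3 genes. LSM14A in TNRC6AB-/- siTNRC6C against WT siGL2 cells had a log2 difference of -0.19, which became -0.31 and was called without WT siGL2 replicate 3 (adjusted p = 0.0135). Without the 4 distant libraries LSM14A was called there (0.000603), in TNRC6AB-/- siGL2 against WT siGL2 cells (-0.23, 0.0117) and in TNRC6B-/- cells (0.23, 0.0302), and DDX6 was called in TNRC6AB-/- siTNRC6C against WT siGL2 cells (-0.27, 0.0251). Reads of DDX6 and EIF4ENIF1 could include those of genes on the opposite strand (AP002954.1 for DDX6 and DRG1 and SFI1 for EIF4ENIF1).

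**Figure D4:**
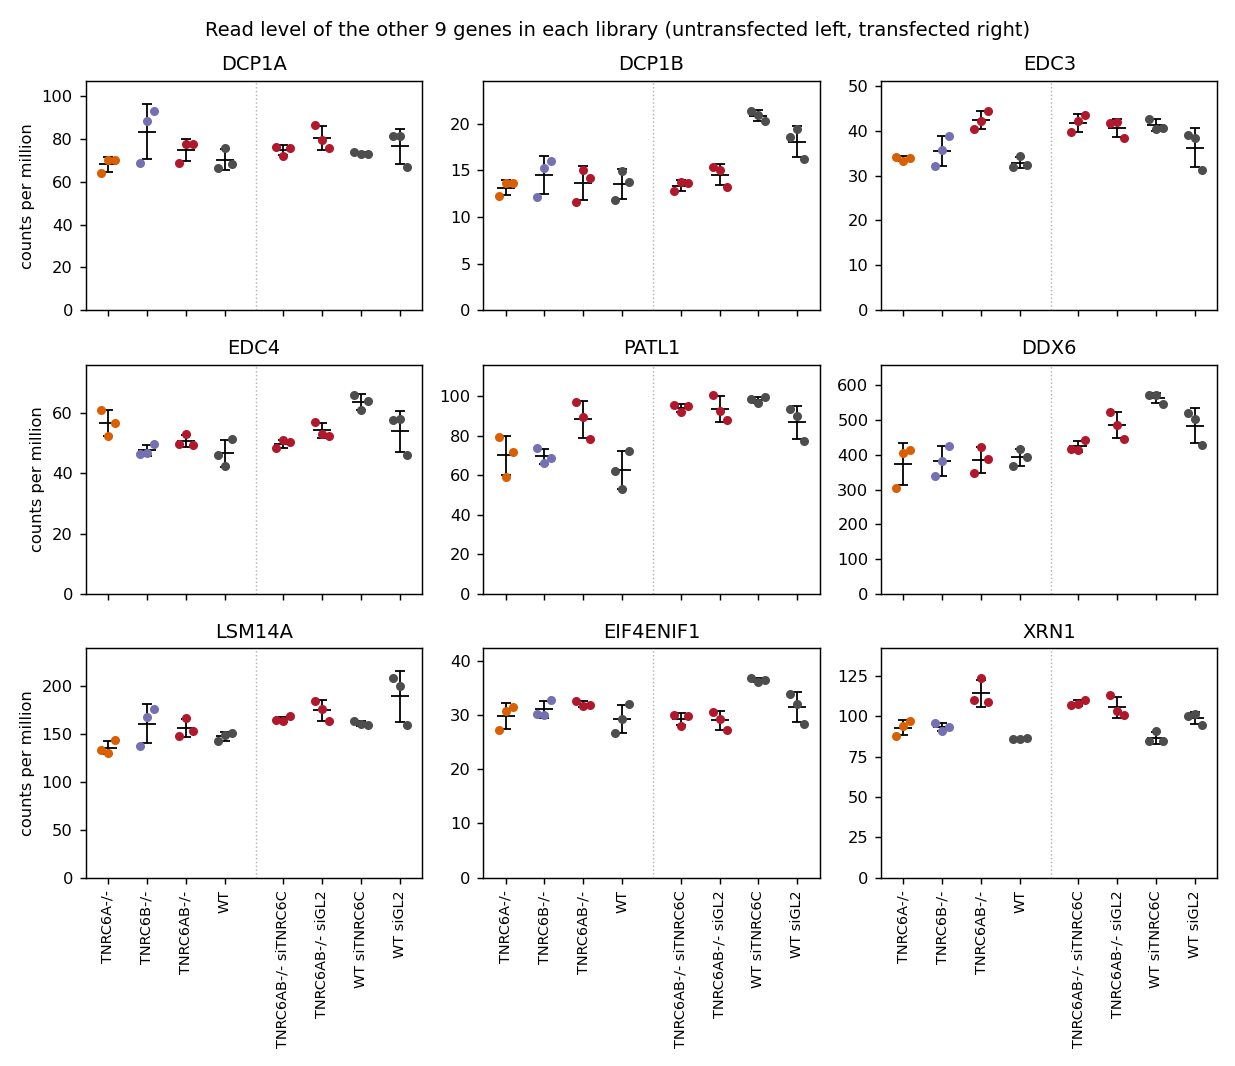
Read levels of the other 9 genes in each library, in CPM on linear axes from 0, with the untransfected groups left of the dotted line and the transfected groups right of it. Points are libraries, and bars give the mean and SD of 3 libraries. EDC3, PATL1 and XRN1 lie higher in TNRC6AB-/- than in WT libraries before transfection, and DCP1B, EDC4, DDX6 and EIF4ENIF1 lie lower in TNRC6AB-/- siTNRC6C than in WT siTNRC6C libraries.

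Comparing genotypes under siTNRC6C, gave calls in both directions. The TNRC6AB-/- siTNRC6C libraries are those already set against WT siGL2, so the values of DCP2 and DCP1B in both comparisons are not independent. In this comparison, added after the values were seen, DCP2 and XRN1 rose and DCP1B, EDC4, DDX6 and EIF4ENIF1 fell, 6 of 10 genes where 41.9% of all genes were called. DCP1B had 12.7 to 13.7 CPM in TNRC6AB-/- siTNRC6C libraries, against 20.3 to 21.4 CPM in WT siTNRC6C libraries, and fell by 0.64 on the log2 scale (SE 0.12, adjusted p = 0.000164). DDX6 had 415, 415 and 443 CPM, against 571, 573 and 546 CPM in WT siTNRC6C libraries, and fell by 0.41 (SE 0.12, adjusted p = 0.00740). EDC4 had 48.2, 50.8 and 50.2 CPM, against 65.9, 60.9 and 63.7 CPM, and fell by 0.35 (SE 0.09, adjusted p = 0.00424). EIF4ENIF1 had 30.0, 28.0 and 29.9 CPM, against 36.8, 36.2 and 36.4 CPM, and fell by 0.32 (SE 0.09, adjusted p = 0.00684). The groups were separate for each of these genes, as they were for 68.7% of all tested genes. The call on EDC4 was lost with length-scaled counts (log2 difference -0.23, adjusted p = 0.158). EIF4ENIF1 lost its call without the filter on low counts (adjusted p = 0.0809), and with length-scaled counts its difference turned to 0.08 (adjusted p = 0.760).

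**Figure D5:**
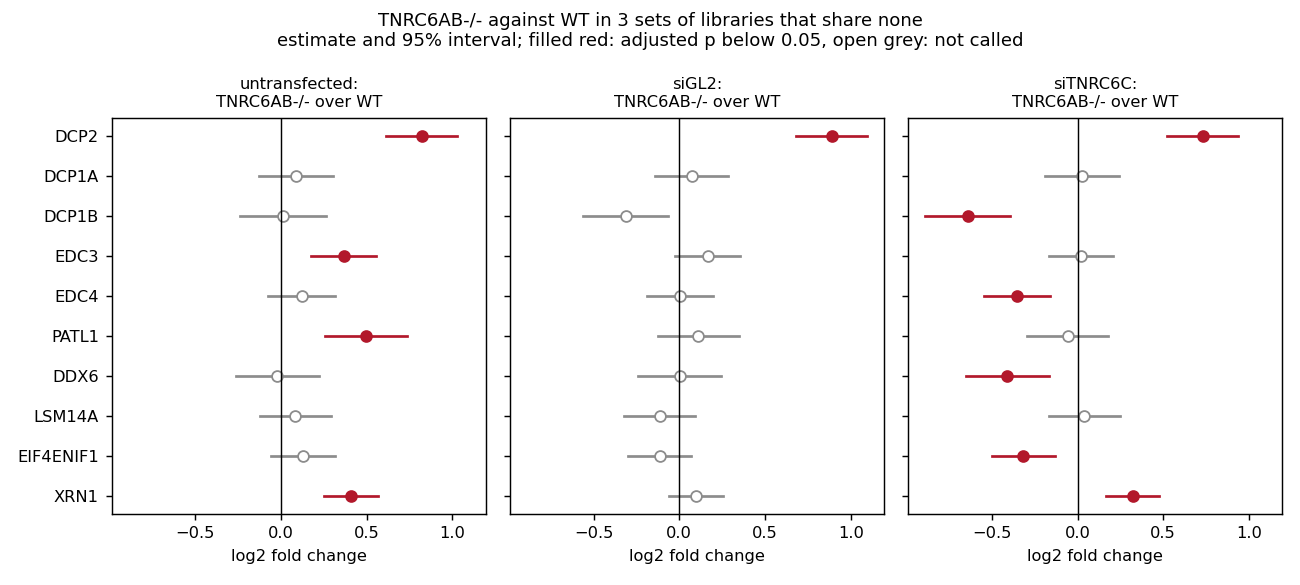
Log2 fold changes of the 10 genes in TNRC6AB-/- over WT cells without transfection (left), with siGL2 (middle) and with siTNRC6C (right), on 1 linear axis with 95% intervals, from 3 sets of libraries that share none. Filled red points have an adjusted p below 0.05 and open grey points do not. DCP2 is the gene called in all 3 panels, at 0.82, 0.89 and 0.73.

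Knockdown of TNRC6C changed no member past the threshold in either genotype. In WT cells 0 of 10 were called (0.932% of all genes were), although 5 passed at an unadjusted p below 0.05 and the libraries of 8 genes did not overlap, which 29% of all genes showed. DESeq2 called 0 there and limma voom 2, DCP2 and EDC4. The log2 differences ran from -0.23 for LSM14A to 0.24 for DCP2, and LSM14A was called without the 4 distant libraries (-0.34, adjusted p = 0.00391). In TNRC6AB-/- cells 0 of 10 were called by edgeR, DESeq2 and limma voom (6.57% of all genes were called by edgeR), and 0 passed at an unadjusted p below 0.05. The libraries of 2 genes did not overlap there, as those of 46.9% of all genes did not. The log2 differences ran from -0.19 for DDX6 to 0.08 for DCP2. Whether the effect of siTNRC6C differed between the genotypes was tested directly, with 0 of 10 genes called by edgeR where 3.03% of all genes were, 3 at an unadjusted p below 0.05, and 0 by DESeq2. The distance of a library from its group mean over all genes (root mean square, log2) was 0.0781 to 0.171 among transfected and 0.124 to 0.292 among untransfected libraries. With a spread for each group (limma voom) DCP1B, EDC4 and DDX6 were called in this test, with log2 differences of -0.33, -0.36 and -0.42.

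The control duplex was compared with no transfection in WT cells. WT siGL2 exceeded WT cells in PATL1, LSM14A, DCP2 and DCP1B, 4 of 10 genes where 24.8% of all genes were called, and the median log2 fold change of the 10 was 0.26, beside -0.01 over all genes. The libraries of 6 genes did not overlap, where 35.5% of all genes showed this. LSM14A had 208, 200 and 159 CPM in WT siGL2 libraries, against 142, 149 and 151 CPM in WT libraries, and rose by 0.36 (SE 0.10, adjusted p = 0.0128). The call was lost without WT siGL2 replicate 1 (adjusted p = 0.0840) or replicate 2 (0.0688) and without the filter on low counts (0.0513). The other 6 genes had log2 differences of 0.10 to 0.30 in CPM, while the log2 ratios of mean TPM less the median of all genes were below 0 for DCP1A (-0.13), EIF4ENIF1 (-0.16) and XRN1 (-0.07). With protein-coding transcripts alone DCP1A stood at -0.08 and EDC3 at -0.07. WT siGL2 replicate 3 had the lowest value of its group for every one of the 10 genes, and without the 4 distant libraries, it among them, 9 of 10 genes were called. That setting takes the farthest library from both groups, which tends to narrow their spread for all genes. When the 6 compared libraries were fitted alone, 0 of 10 were called. Whether the genotype effect differed with transfection, and whether losing TNRC6B did more in TNRC6A-/- than in WT cells, were tested as interactions. Both called 0 of 10 genes, where 8.72% and 7.75% of all genes were called. At an unadjusted p below 0.05 there were 2 genes in the interaction with transfection and 0 in the interaction of the mutations. DESeq2 called 1 gene (XRN1) in the interaction with transfection and 0 in the other. XRN1 was also called there without WT siGL2 replicate 3 (-0.34, adjusted p = 0.0491).

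Across the 8 groups the mean levels of DCP2 went most closely with those of EDC3 (Pearson's r = 0.75), PATL1 (0.73) and XRN1 (0.70), a description over 8 means that share genotype and transfection. DCP2 went least with EIF4ENIF1 (-0.18), DCP1B (-0.16) and DCP1A (0.03). The closest pair of all was EDC3 and PATL1 (0.91), followed by DCP1B and DDX6 (0.87).

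Partners of the 10 genes were counted from lists written with earlier results known. Of 15 cap and LSM ring genes (the LSM1-7 ring binds oligoadenylated mRNA ends and activates decapping) 2 rose and 2 fell in TNRC6AB-/- cells, 0 rose and 6 fell in TNRC6AB-/- siGL2 against WT siGL2 cells, and 0 rose and 10 fell in TNRC6AB-/- siTNRC6C against WT siGL2 cells. Of all tested genes 17.2% rose and 12.3% fell in the first of these comparisons, 9.17% rose and 12.5% fell in the second, and 25.2% fell in the third. In WT siGL2 over WT cells 12 of the 15 rose and 0 fell, where 16.4% of all genes rose. The 15 summed to 658.2 to 862.5 CPM in WT, 958.7 to 1197 in WT siGL2, 846.3 to 992.5 in TNRC6AB-/- siGL2 and 765.5 to 801.9 in TNRC6AB-/- siTNRC6C libraries. Falls against WT siGL2 were therefore measured from a summed level above that of untransfected WT cells. LSM5 and LSM7, ring subunits, had log2 fold changes of -1.21 (adjusted p = 5.02e-08) and -0.64 (adjusted p = 0.000699) in TNRC6AB-/- cells, while DCPS, the scavenger that hydrolyses the free cap, rose by 0.49 (adjusted p = 0.00895). LSM5, LSM6 and LSM7 fell by 1.68, 1.05 and 1.11 in TNRC6AB-/- siTNRC6C against WT siGL2 cells. In TNRC6A-/- cells LSM7, LSM5 and LSM6 fell, by 0.74, 0.50 and 0.38 (5.47% of all genes fell), and in TNRC6B-/- cells 0 of the 15 were called, with 2 at an unadjusted p below 0.05.

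Of 19 translational repressors and mRNA-binding adaptors 4 rose and 1 fell in TNRC6AB-/- cells. RC3H2 (Roquin-2, which recruits deadenylases to stem-loops), EIF4E2 (a cap-binding repressor) and MOV10 (a helicase bound to Argonaute) rose by 0.89, 0.69 and 0.45. Of all tested genes 17.2% rose and 12.3% fell in this comparison. RC3H2 also rose by 1.06 in TNRC6AB-/- siGL2 against WT siGL2 cells (adjusted p = 1.63e-08). Of 17 genes of the exosome and SKI complex, which degrade mRNA from the 3′ end, 0 rose and 3 fell in TNRC6AB-/- cells, EXOSC8 by 0.70, EXOSC7 by 0.64 and EXOSC5 by 0.97. In TNRC6AB-/- siGL2 against WT siGL2 cells 1 of the 17 rose and 1 fell, where 9.17% of all genes rose and 12.5% fell. In TNRC6AB-/- siTNRC6C against WT siGL2 cells 0 of the 17 rose and 9 fell, where 17% of all genes rose and 25.2% fell. WT siGL2 over WT cells had 5 rises and 2 falls among the 17, where 16.4% of all genes rose and 8.41% fell.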

How the data were processed

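RNA of 24 HCT116 libraries was sequenced by the authors. Per the labels, RNA came from Trizol extraction and a strand-specific whole-transcriptome kit, whereas the methods name spin columns. The deposited tables, made by the authors with Salmon 0.11.0, hold an estimated count (not an integer) and TPM for 199612 transcripts of each library. Identifiers without version matched GENCODE 29 for 199368 of them, and those left over held at most 0.054% of a library's reads. Estimated counts were summed to 57721 genes and rounded, 24153 genes passed filterByExpr, and counts were scaled by TMM. All libraries were fitted together, with a mean per group and 16 residual degrees of freedom, in edgeR 4.0.16 (R 4.3.3), using the quasi-likelihood test, contrasts and interactions, and Benjamini-Hochberg adjustment over all tested genes. A call needs an adjusted p below 0.05 and no minimum fold. Standard errors and 95% intervals follow from the F statistic. Intervals cover the spread between libraries only.

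The 10 genes, the partner lists and the microRNA families were chosen with earlier results of these data known. All 10 genes are named. Of a partner list up to 3 genes with the smallest adjusted p are named per comparison. Alternatives were RLE size factors, no filter on low counts, DESeq2 1.42.0, limma 3.58.1 (voom with a variance per group), the compared libraries alone, counts scaled by average transcript length, protein-coding transcripts alone, the replicate number as a block, and each library left out. Leaving out the 4 distant libraries, each the farthest of its group from the mean, was added after seeing the data. So were the comparisons of TNRC6A-/- with TNRC6B-/-, TNRC6AB-/- with TNRC6A-/- and TNRC6AB-/- siTNRC6C with WT siTNRC6C cells. Scripts were tested on simulated data.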

Additional observations from a re-analysis of the deposited data

Results flagged for a closer look

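EDC4 and DDX6 stood out because every siTNRC6C library lay above every siGL2 library in WT cells and below every siGL2 library in TNRC6AB-/- cells. For EDC4 the effect of siTNRC6C on the log2 scale was -0.12 in TNRC6AB-/- cells (adjusted p = 0.437) and 0.24 in WT cells (adjusted p = 0.264, edgeR), and the difference between these effects was -0.36 (SE 0.13, adjusted p = 0.140). For DDX6 it was -0.19 in TNRC6AB-/- cells (adjusted p = 0.317) and 0.22 in WT cells (adjusted p = 0.455), and the difference was -0.41 (SE 0.17, adjusted p = 0.174). Neither difference passed the threshold in the fit of all libraries. Both passed when the compared libraries were fitted alone (adjusted p = 0.00252 for EDC4 and 0.00124 for DDX6) and with a variance per group in limma voom (0.0102 and 0.0143). WT siGL2 replicate 3, the lowest library of its group for both genes, had 46.1 CPM of EDC4 and 427 CPM of DDX6.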

How the results depend on the processing

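Of 1260 log2 fold changes of single genes under 9 other settings, 1155 kept their direction and their side of the threshold, 72 newly passed it, 32 no longer passed it and 1 reversed. The reversed value was EIF4ENIF1 in TNRC6AB-/- siTNRC6C against WT siTNRC6C cells, at 0.0781 with length-scaled counts, and the cause was not tested. Of 1020 values with a library left out, 990 stayed, 13 newly passed, 17 no longer passed and 0 reversed.

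Counts of called genes moved by more than 1.5 times as follows, with causes not tested. In TNRC6A-/- against WT cells 2 became 1 with RLE size factors, without the count filter, in the compared libraries alone, with limma voom, with length-scaled counts and with the replicate block. In the compared libraries alone the count was 1 for TNRC6AB-/- against WT (4 in the fit of all libraries), 1 for TNRC6AB-/- against TNRC6A-/- (3), 0 for WT siGL2 against WT (4), 4 for WT siTNRC6C against WT siGL2 (0), 5 for TNRC6AB-/- siGL2 (1) and 5 for TNRC6AB-/- siTNRC6C (2) against WT siGL2, 1 for TNRC6AB-/- siTNRC6C against TNRC6AB-/- siGL2 (0) and 4 for the interaction of siTNRC6C with genotype (0). Limma voom gave 2 for WT siTNRC6C and 2 for TNRC6AB-/- siGL2, 4 for TNRC6AB-/- siTNRC6C, each against WT siGL2, and 3 for that interaction. Without the count filter WT siGL2 against WT had 1 and TNRC6AB-/- against TNRC6A-/- 0. Length-scaled counts gave 2 for TNRC6AB-/- against WT and 1 for TNRC6AB-/- against TNRC6A-/-. Protein-coding transcripts alone gave 3 for TNRC6AB-/- siGL2, 5 for TNRC6AB-/- siTNRC6C and 1 for WT siTNRC6C, each against WT siGL2, 3 for TNRC6A-/- against TNRC6B-/- (1), and 1 for each interaction of TNRC6AB-/- with transfection and of the mutations (0). DESeq2 gave 1 for the interaction with transfection. Without the 4 distant libraries the counts were 4 for TNRC6B-/- against WT (0), 9 for WT siGL2 against WT, 3 for TNRC6AB-/- siGL2, 5 for TNRC6AB-/- siTNRC6C and 1 for WT siTNRC6C, each against WT siGL2, 5 for TNRC6A-/- against TNRC6B-/-, 6 for TNRC6AB-/- against TNRC6A-/- and 4 for the interaction with transfection. Over all genes that setting called 6008 in TNRC6B-/- against WT cells, the compared libraries alone 44, and the fit of all libraries 759.

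With 1 library left out the counts were 1 to 2 for TNRC6A-/- and 0 to 1 for TNRC6B-/- against WT, 1 to 8 for WT siGL2 against WT, 1 to 2 for TNRC6AB-/- siGL2 and 2 to 3 for TNRC6AB-/- siTNRC6C against WT siGL2, 1 to 3 for TNRC6A-/- against TNRC6B-/-, 1 to 3 for TNRC6AB-/- against TNRC6A-/- and 0 to 1 for the interaction with transfection. The other counts stayed at 4 for TNRC6AB-/- against WT, 6 for TNRC6AB-/- siTNRC6C against WT siTNRC6C and 0 elsewhere. Deviations from the group mean correlated unevenly between libraries of equal replicate number. The correlations were 0.324, 0.171 and 0.0991 for TNRC6A-/- and WT. They were 0.485, 0.0273 and 0.619 for TNRC6AB-/- siGL2 and WT siGL2, and -0.143, -0.0219 and -0.259 for TNRC6AB-/- siTNRC6C and WT siGL2. No comparison had all 3 above 0.1, and a pairing by number was neither shown nor excluded. The block changed no call other than that on EDC4 in TNRC6A-/- cells (adjusted p = 0.0651). Differences of DCP1B rest on 360 to 770 reads per library.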
